A study of Mus musculus with 16 samples.

Results

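Organoid lines grown from liver, lung and ovary metastases of mouse pancreatic ductal adenocarcinoma were compared with organoid lines from the primary tumors of the same animals. The series holds 16 organoid lines from 6 mice of the KPC model, and 8 lines from 3 of these mice enter the comparison. They are all lines with a liver, lung or ovary label and all primary lines of the mice that gave them. Mouse 1 gave the primary line T3 and the liver line M1. Mouse 5 gave the primary line T34 and the lung line M16. Mouse 6 gave 2 primary lines, T69a and T69b, the liver line M28 and the ovary line M30. No line from diaphragm or peritoneum was used.

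KPC tumors arise in the pancreas from Cre-driven mutant alleles, Trp53 among them, so primary and metastasis lines share these drivers and no line is a normal control. The labels give the strain of every line as C57BL6/J and give no age, allele state, clone or passage. All lines grew in domes of Matrigel, a basement membrane gel, in a medium with EGF, FGF-10, gastrin, Noggin, R-spondin and the TGF-beta receptor inhibitor A83-01. The cells were therefore sampled in culture and not in the host organ. Lung and ovary have 1 line each, and the lines of 1 mouse are not independent animals. The p-values measure the spread between these lines.

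Pancreatic ductal adenocarcinoma has the character of pancreatic duct cells, which use transcription factors such as ONECUT1 and HHEX and secrete bicarbonate and mucus. KPC tumor cells start with a mutant and a wild-type Trp53 allele, and the wild-type copy is often lost as the tumor progresses. Wild-type p53 switches on genes of cell cycle arrest, DNA repair and cell death, among them Cdkn1a, whose product p21 halts cell division, and Mdm2, whose product marks p53 for degradation. Cells that reach the liver, lung or ovary also meet new matrix, growth factors and immune signals, so genes of these systems were followed as well.

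Total expected counts per line ran from 37779976 in M30 to 49965492 in T3. Levels are CPM, counts brought to a common library total, on library sizes scaled by TMM, a method that balances the bulk of genes between libraries. The lines carried epithelial transcripts throughout. Epcam, an epithelial adhesion molecule, ran from 316 to 579.5 CPM, and Krt19, a duct keratin, from 795 to 1590 CPM. Summed levels of 10 fibroblast markers stayed between 0.217 and 0.878 CPM, and those of 7 endothelial markers between 0.237 and 0.777 CPM. The libraries differed in leftover ribosomal RNA. Transcripts of 3 genes that collect such reads made up 12.3% of counts in M30, 4.16% in M16 and 2.19% in M1, and 0.0185% to 0.298% in the other lines.

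T69a stood apart from the other primary lines. Across genes, its log2 CPM correlated with that of M30 at r = 0.980 and with that of M28 at r = 0.966. Its correlation was 0.945 with T69b, the other primary line of its mouse, and 0.911 with T3. T69b correlated with T3, from another mouse, at 0.969. These correlations are across genes of single libraries and describe these libraries only. The library of T69a therefore lay closer to both metastasis lines of its mouse than to the second primary line, against its label. Results are given with all 8 lines and again without T69a. Because T69a was set aside for its likeness to the metastases, the second fit widens the contrast by its construction, and its adjusted p values are a description of 7 lines and not independent evidence.

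In the fit of all 8 lines with mouse as a block, 2 of 15718 genes tested (0.0127%) passed an adjusted p of 0.05 in edgeR's quasi-likelihood test. Both were lower in the metastasis lines, and none was higher. The test reached an unadjusted p under 0.05 at 1765 genes. The median log2 fold change over all genes was -0.022.

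Adh1 (ENSMUSG00000074207.10, chromosome 3, 138260991 to 138290698, GRCm38) encodes an alcohol dehydrogenase that oxidises ethanol and retinol. Its level was 0.493, 20.8, 3.68 and 2.06 CPM in T3, T34, T69a and T69b. The metastasis lines M1, M28 and M30 had 0 counts and M16 had 0.0244 CPM. The primary lines together held 1212 counts and the metastasis lines 1. The ratio of counts scaled to library size was 1107, with an exact 95% interval of 198.4 to 43780 that covers counting error only. The fitted log2 fold change was -9.52 ± 0.57 (± SE, as for all fold changes here), with adjusted p = 0.0187. A fitted value against lines at 0 depends on the prior count and is no bound. The groups did not overlap, and T69a lay among the primary lines here. T34 had the highest level by far, so the size of the fall differed between mice.

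Ambp (ENSMUSG00000028356.4, chromosome 4, 63143275 to 63154799, GRCm38) encodes the precursor of the plasma proteins alpha-1-microglobulin and bikunin and served as a duct marker in the lists used here. Its level was 100.4, 193, 9.96 and 24.9 CPM in T3, T34, T69a and T69b and 0.0785, 0.122, 0.0678 and 0.0906 CPM in M1, M16, M28 and M30. Its mean was 82.0 ± 83.8 CPM (SD, n = 4) in the primary lines and 0.0897 ± 0.0234 CPM (SD, n = 4) in the metastasis lines. The log2 fold change was -9.54 ± 0.66, with adjusted p = 0.0232. Each metastasis line lay below every primary line of its mouse, T69a included, although T69a had the lowest level of the 4 primaries. As in all bulk samples, fewer cells that express a gene and less of its RNA per cell cannot be told apart.

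Mmp7, a matrix metalloproteinase secreted by duct epithelium, came next. It was 20.1, 189.5, 8.02 and 11 CPM in T3, T34, T69a and T69b and 0.412, 0.975, 0 and 0.0302 CPM in M1, M16, M28 and M30. The groups did not overlap, but the adjusted p of 0.0523 missed the threshold (log2 fold change -7.13 ± 0.60).

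**Figure D1:**
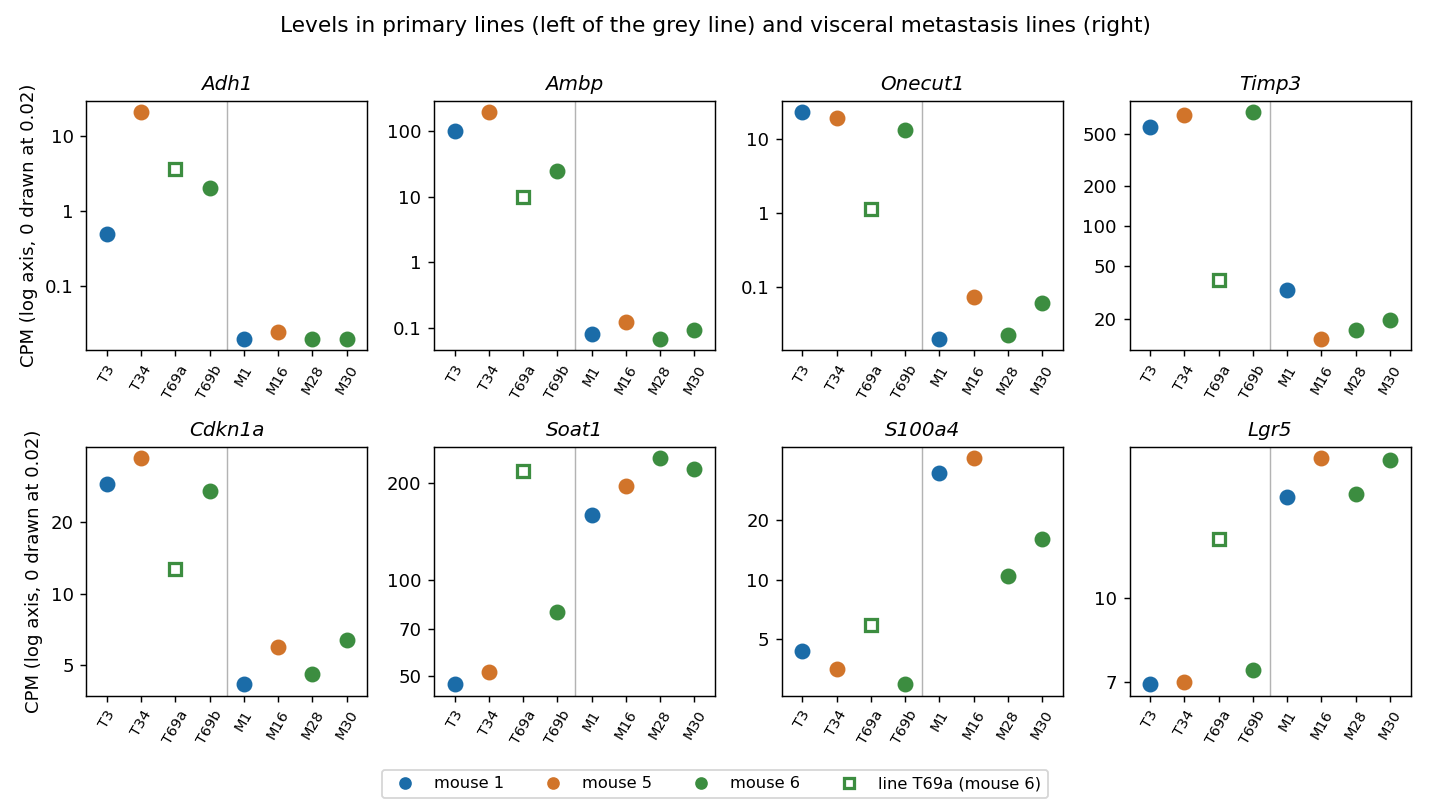
Levels of 8 genes in each line, in CPM on a log axis, with primary lines left and metastasis lines right of the grey line, coloured by mouse; an open square is T69a and a level of 0 is drawn at 0.02. At Adh1 and Ambp T69a lies with the other primary lines, whereas at Timp3 and Soat1 it lies close to or among the metastasis lines.

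The count of genes past the threshold turned on single lines. Leaving out T69a raised it from 2 to 579 of 16075 genes (3.6%), 250 higher (1.56%) and 329 lower (2.05%). Leaving out any other line gave 0 to 2. The filter on low counts asks for reads in as many lines as the smaller group holds, so it was looser without T69a. Of the calls without T69a, 247 of 250 higher and 274 of 329 lower were also tested with all 8 lines. Lower calls thus entered through the looser filter more often than higher ones, so the balance of directions is partly set by the filter. The 7-line count depended on single lines as well: it was 17 without T3, 18 without M1, 96 without T34, 122 without M16, 69 without M28, 184 without M30 and 563 without T69b. DESeq2, which estimates the spread of each gene differently, called 732 genes in all 8 lines (4.66%), 252 higher (1.6%) and 480 lower (3.05%). With no replicate block for mouse, edgeR called 0 genes in 8 lines and 610 without T69a. Leaving out the 3 genes that collect ribosomal RNA gave 2 calls in 8 lines and 564 without T69a.

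**Figure D2:**
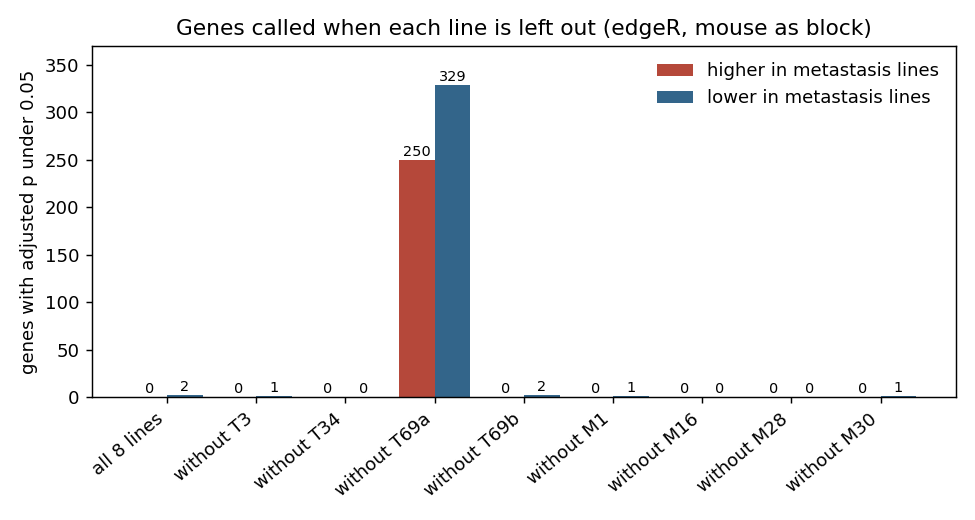
Number of genes with an adjusted p under 0.05 in edgeR (vertical axis, bars from 0) in the fit of all 8 lines and with each line left out in turn; red bars count genes higher and blue bars genes lower in the metastasis lines. The fit without T69a has 250 and 329 genes, and every other fit has at most 2.

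Direction was also counted without a test. At 1247 of the 15718 genes (7.93%), every metastasis line lay below every primary line of its mouse, T69a included, and at 686 (4.36%) every metastasis line lay above. With T69a set aside these counts were 2770 (17.6%) and 2305 (14.7%). Counts by order in the lists that follow are read against these percentages, and calls without T69a against 1.56% of genes called higher and 2.05% called lower. The lists were chosen with earlier results of these data known, so this comparison describes the lists and is not independent evidence.

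T69a was also compared at the genes called without it. Of those 579 genes, 521 were tested in 8 lines. All 521 kept the sign of their fold change when T69a was put back, and 396 of them had an unadjusted p under 0.05 in that fit. Agreement in sign is partly fixed, since the fits share 7 lines. At 451 of the 521 genes (86.6%) T69a lay nearer to the mean of M28 and M30 than to T69b, against 81.8% of the 2316 genes at which that mean and T69b differed over 2-fold. It did so at 237 of 247 genes called higher (96%) and at 214 of 274 called lower (78.1%). The median share of the gap from T69b to the metastasis lines that T69a covered was 1.06 at the genes called higher and 0.753 at those called lower. These are medians over genes, and single genes departed from them.

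**Figure D3:**
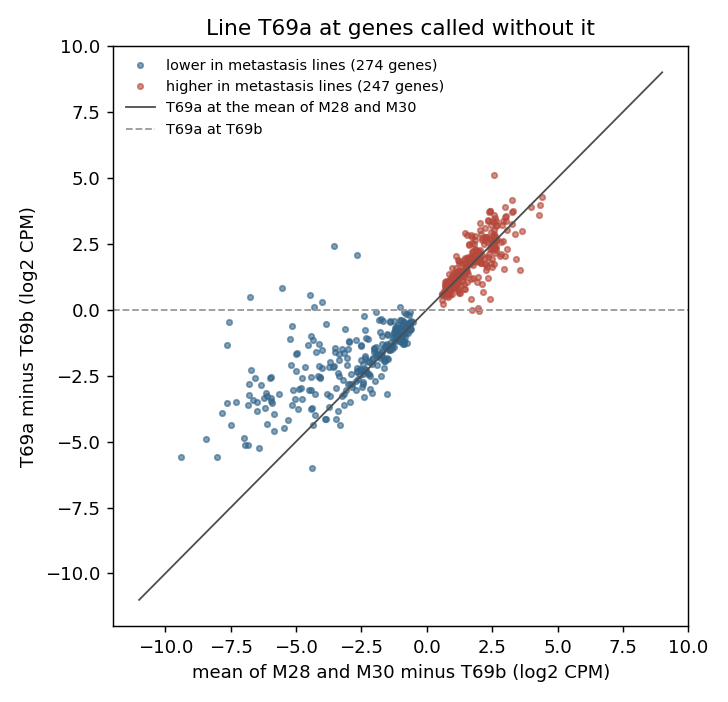
Each point is 1 of the 521 genes called without T69a and tested in 8 lines; the horizontal axis is the mean of M28 and M30 minus T69b and the vertical axis is T69a minus T69b, both in log2 CPM. Points are red for genes higher and blue for genes lower in the metastasis lines; on the solid line T69a equals the mean of M28 and M30, on the dashed line it equals T69b, and 237 of 247 red and 214 of 274 blue points have T69a nearer to M28 and M30.

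The genes with the lowest log2 fold changes without T69a were chosen after their values were seen. They include transcription factors of other organs and of the endocrine pancreas. Sall1, a zinc finger factor of kidney development, was 12.7, 12.4, 0.434 and 9.99 CPM in T3, T34, T69a and T69b, and in the metastasis lines only 1 count was found, in M28. Nkx2-2, a factor of endocrine pancreas cells, was 0.869, 1.88, 0.0914 and 1.54 CPM in the primary lines and had 0 counts in all 4 metastasis lines. In counts pooled by group it was at least 61.8-fold lower there, taking 3 counts over the group as the limit that a count of 0 allows. That limit covers counting error only and not the spread between lines. T69a was the lowest of the primary lines at both genes.

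Ano3, a membrane protein of the anoctamin family, had 1245 counts over the primary lines and 0 over the metastasis lines, which was at least 379.2-fold lower by the same limit. Mgmt, the enzyme that removes alkyl groups from guanine in DNA, was 5.45, 6.96, 0.114 and 3.79 CPM in T3, T34, T69a and T69b. It had 1 count in all metastasis lines together, in M16. Trf, the iron carrier transferrin, was 99.5, 1204, 50.8 and 36.8 CPM in the primary lines and 0.275, 0.805, 0.0452 and 1.21 CPM in M1, M16, M28 and M30. Its adjusted p was 0.172 with 8 lines and 0.0325 without T69a. Xlr3a, an X-linked gene, was 28.6, 2.6, 1.05 and 0.846 CPM in the primary lines and had 1 count in the metastasis lines, but it belongs to a family of near-identical genes among which reads may be shared.

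The genes with the largest rise without T69a were also chosen after their values were seen. Nat8l, which makes N-acetylaspartate, was 0.257, 0.358, 5.96 and 2.06 CPM in T3, T34, T69a and T69b and 18.6, 15, 57.3 and 11 CPM in M1, M16, M28 and M30. Every metastasis line lay above every primary line (log2 fold change without T69a 4.96 ± 0.80, adjusted p = 0.0376; with 8 lines 4.30 ± 0.89, adjusted p = 0.259). Igf2bp3, an RNA-binding protein of fetal tissues and tumors, was 0.178, 0.984, 3.34 and 0.846 CPM in the primary lines and 6.01, 14.6, 18.9 and 4.65 CPM in the metastasis lines. The groups did not overlap, and its adjusted p was 0.0345 without T69a and 0.295 with it. Foxf2, a forkhead factor of gut mesenchyme, was 0, 0.0224, 39.3 and 2.6 CPM in the primary lines and 0.452, 1.41, 33 and 52.3 CPM in the metastasis lines. T69a, M28 and M30, all of mouse 6, were far above the other lines, and T3 and T34 were at or near 0.

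Targets of p53 lay low in the metastasis lines. The list, chosen with earlier results of these data known, held 25 genes, all tested. Every metastasis line lay below every primary line of its mouse at 14 of them with T69a included and at 19 with T69a set aside, against 7.93% and 17.6% of all genes. None lay above in every mouse. Without T69a, 13 of 25 were called lower and none higher, against 2.05% of all genes. The median log2 fold change was -1.29 with 8 lines and -1.48 without T69a, against -0.022 and -0.018 over all genes tested. With 8 lines edgeR called none, although 18 had an unadjusted p under 0.05 and a lower level. DESeq2 called 16 of the 25 lower in 8 lines, against 3.05% of all genes. The 13 calls fell to 1 without T3 or without M1, and to between 7 and 10 without each of the other lines.

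Among the arrest genes, Cdkn1a was 28.8, 37.2, 12.7 and 27 CPM in T3, T34, T69a and T69b and 4.16, 5.97, 4.59 and 6.41 CPM in M1, M16, M28 and M30. The primary mean was 26.4 ± 10.2 CPM (SD, n = 4) and the metastasis mean 5.28 ± 1.08 CPM (SD, n = 4). The log2 fold change was -2.29 ± 0.33 with 8 lines (adjusted p = 0.172) and -2.55 ± 0.21 without T69a (adjusted p = 0.0103). T69a, the lowest primary line, was still above every metastasis line. Gtse1, which binds p53 in dividing cells, was 91.7, 57.9, 21.5 and 77.7 CPM in the primary lines and 37.9, 40.2, 31.5 and 24.8 CPM in the metastasis lines, and T69a lay below all of the latter.

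Among the genes that act back on p53, Mdm2 was 116, 105, 45.1 and 110.3 CPM in T3, T34, T69a and T69b and 44.4, 56.7, 38.2 and 39 CPM in M1, M16, M28 and M30. Ccng1, which encodes cyclin G1, was 890.3, 606, 137 and 698 CPM in the primary lines and 105, 134, 120.1 and 99.9 CPM in the metastasis lines. Its log2 fold change was -2.27 ± 0.51 with 8 lines (adjusted p = 0.289) and -2.64 ± 0.20 without T69a (adjusted p = 0.0076). T3, T34 and T69b were several-fold above every other line at Ccng1, and T69a lay just above the highest metastasis line. Zmat3, an RNA-binding zinc finger protein, was 40.1, 32.6, 8.71 and 32.3 CPM in the primary lines and 9.31, 8.95, 7.34 and 7.61 CPM in the metastasis lines, with T69a inside the metastasis range.

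The p53 targets with the deepest fall were Eda2r and Dglucy. Eda2r, the receptor of ectodysplasin A2, was 68.9, 42.3, 0.777 and 39.5 CPM in T3, T34, T69a and T69b and 0.0589, 0.171, 0 and 0.0302 CPM in M1, M16, M28 and M30. Dglucy, a mitochondrial glutamate cyclase, was 55.2, 48.7, 1.39 and 43.1 CPM in the primary lines and 0.0393, 0.244, 0.0678 and 0.0906 CPM in the metastasis lines. At both genes T69a was far below T69b and still above every metastasis line. Ephx1, an epoxide hydrolase, was 239.9, 249.7, 37.9 and 165 CPM in the primary lines and 14.4, 11.3, 5.76 and 15.4 CPM in the metastasis lines. Trp53inp1, a stress protein that assists p53, was 118, 175, 29.3 and 88.5 CPM in the primary lines and 8.95, 5.68, 3.93 and 14.9 CPM in the metastasis lines. The groups did not overlap at any of these genes.

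Among the cell death genes, Bax was 152, 128, 48.3 and 124 CPM in T3, T34, T69a and T69b and 56.1, 40.7, 50.9 and 48.3 CPM in M1, M16, M28 and M30. It was called without T69a (adjusted p = 0.0103), and T69a itself lay inside the metastasis range. Fas, a death receptor, was 0.592, 2.42, 0.343 and 0.911 CPM in the primary lines and 0.0785, 0.0244, 0.113 and 0.242 CPM in the metastasis lines, and Bbc3, which encodes PUMA, was 6.16, 10.2, 3.86 and 5.29 CPM and 2.61, 2.0, 2.55 and 2.69 CPM. The groups did not overlap at either gene, and neither passed in edgeR in either fit. Members with little difference in level were Perp, Pmaip1, Rrm2b, Sesn1 and Tnfrsf10b, none of which passed.

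Trp53 itself was 83.9, 82.4, 44.1 and 86.8 CPM in T3, T34, T69a and T69b and 74, 70.7, 66.3 and 52.5 CPM in M1, M16, M28 and M30. T69a had the lowest level of the 8 lines, and the log2 fold change was -0.17 ± 0.22 (adjusted p = 0.79). A gene count does not separate transcripts of a mutant allele from those of a wild-type one, and no allele was read here. T69a lay below T69b at 20 of the 25 targets, against 7807 of all 15718 genes. It was both below T69b and above M28 and M30 at 13 of the 25, against 1300 of all 15718 genes.

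**Figure D4:**
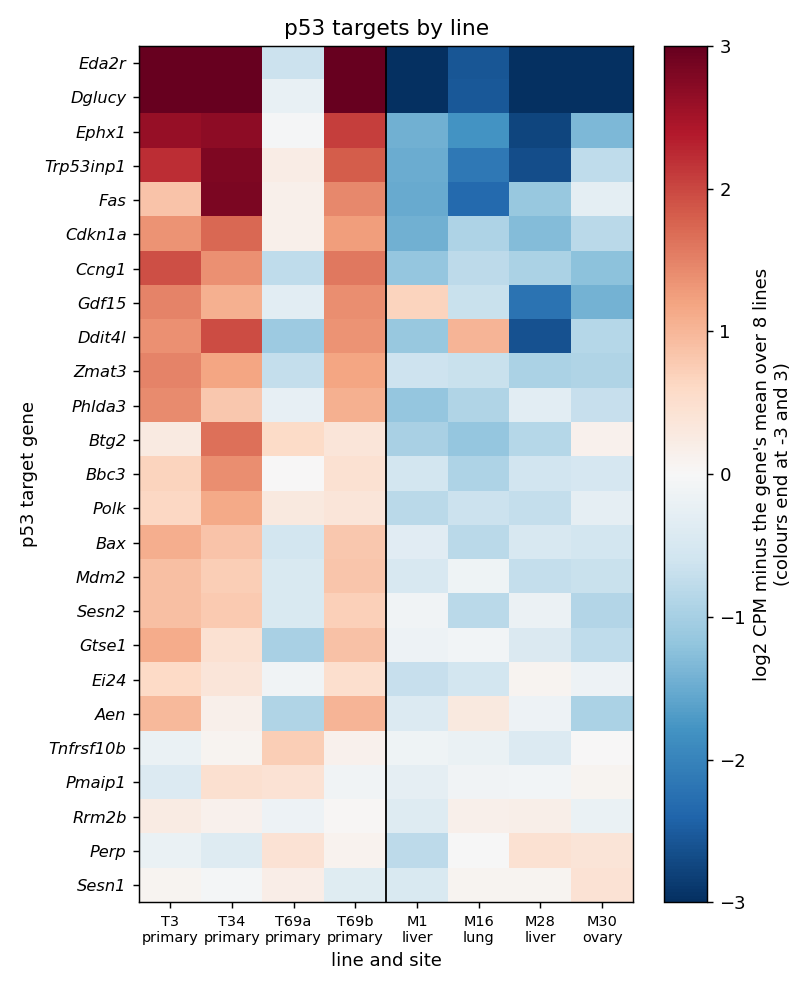
Levels of the 25 p53 target genes (rows) in the 8 lines (columns), as log2 CPM minus the gene's mean over the lines; red is above and blue below that mean, and colours end at -3 and 3. T3, T34 and T69b are red at most rows, the 4 metastasis lines are blue, and T69a lies between T69b and both metastasis lines of its mouse at 13 of the 25 genes, below T69b.

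The promoters of these genes were searched for the p53 half-site consensus, the short palindrome that 1 pair of p53 subunits binds, on both strands and in the 250 bases before each RefSeq start site. Of the 25 list genes, 19 had a promoter of the same build, and 9 of these (47.4%) held at least 1 half-site. The share was 7.22% of the 10778 tested genes with a promoter and 8.2% of all 27025 genes with a promoter. Of all genes called lower without T69a, 26 of 227 (11.5%) held a half-site, and of those called higher 13 of 198 (6.57%). The list was chosen as known p53 targets, so its share describes the list. Of the 11 list members with a promoter that were called lower without T69a, 5 (45.5%) held a half-site. Aen, Ddit4l, Ei24 and Sesn1 also held 1 and were not called in that fit. The half-site thus did not set called members apart from the rest of the list. The 5 list members that held a half-site and were called lower without T69a are shown, as the members with both features, in 60 bases of GRCm38.p6 in the direction of the gene. Capitals mark the half-sites.
Cdkn1a, chr17:29090896-29090955, plus strand: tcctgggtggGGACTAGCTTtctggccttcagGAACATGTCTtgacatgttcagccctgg
Mdm2, chr10:117710895-117710954, minus strand: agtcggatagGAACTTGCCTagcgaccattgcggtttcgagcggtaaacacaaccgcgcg
Ccng1, chr11:40755422-40755481, minus strand: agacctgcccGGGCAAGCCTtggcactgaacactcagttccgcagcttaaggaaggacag
Bax, chr7:45467050-45467109, minus strand: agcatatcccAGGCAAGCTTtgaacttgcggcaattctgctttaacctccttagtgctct
Polk, chr13:96519369-96519428, minus strand: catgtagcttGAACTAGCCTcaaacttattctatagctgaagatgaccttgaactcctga

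Cdkn1a held 2 exact half-sites within 13 bases of each other, the spacing allowed in the consensus for a p53 tetramer. This spacing was found at 5 of the 10778 tested genes (0.0464%) and at no other list member. Only exact matches were marked. In Cdkn1a the bases right after the second marked half-site depart from the consensus in their first letter alone and stayed unmarked. Which of these bases p53 binds was not tested. A match of letters is a description of the window. It shows neither binding nor its absence elsewhere in the gene.

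Of 10 transcription factors of pancreatic duct and progenitors tested without T69a, 6 were called lower against 2.05% of all genes, among them Onecut1, Nr5a2, Hhex, Prox1 and Foxj1, and 1 higher (Pdx1). Prox1 passed the filter on low counts only without T69a. Its level was 0.592, 1.99, 0 and 0.325 CPM in T3, T34, T69a and T69b. In M1, M16, M28 and M30 it was 0, 0.0975, 0 and 0 CPM. With 8 lines, 9 were tested and edgeR called none, while DESeq2 called Onecut1, Nr5a2, Hhex and Foxj1 lower, against 3.05% of all genes. The median log2 fold change was -0.66 with 8 lines and -1.90 without T69a. By order, 3 of 9 were lower in every mouse with T69a and 6 of 9 without, against 7.93% and 17.6% of all genes. T69a lay nearer to M28 and M30 than to T69b at 7 of 9 (77.8%), against 74.3% of all genes tested.

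Onecut1, a factor of duct and liver progenitors, was 22.7, 18.9, 1.14 and 13.3 CPM in T3, T34, T69a and T69b and 0.0196, 0.0731, 0.0226 and 0.0604 CPM in M1, M16, M28 and M30. Its log2 fold change was -8.21 ± 1.07 with 8 lines (adjusted p = 0.152) and -8.60 ± 0.48 without T69a (adjusted p = 0.00461). Every primary line was above every metastasis line, with T69a far below the other primaries. Foxj1, which drives motile cilia, was 28.6, 69.1, 2.38 and 14 CPM in the primary lines and 0.118, 0.146, 0.158 and 0.211 CPM in the metastasis lines. Nr5a2, a nuclear receptor of exocrine pancreas, was 28.4, 31.9, 2.29 and 19 CPM in the primary lines and 0, 0.0244, 0.294 and 0.846 CPM in the metastasis lines. The mouse 6 metastasis lines kept more Nr5a2 than M1 and M16.

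Hhex, a homeobox factor of foregut and duct, was 82.1, 92.1, 10.03 and 65.2 CPM in T3, T34, T69a and T69b and 3.77, 15.1, 17.8 and 15.6 CPM in M1, M16, M28 and M30, with T69a inside the metastasis range. Pdx1, which marks pancreas progenitors, went the other way at 23.8, 23.4, 47.8 and 27.1 CPM in the primary lines and 41.4, 46.7, 43.3 and 57.1 CPM in the metastasis lines (without T69a log2 fold change 0.89 ± 0.15, adjusted p = 0.0416). Sox9, a duct and progenitor factor, was 13, 18.5, 19.4 and 16.2 CPM and 11.9, 22.4, 18.2 and 22.7 CPM in the same order, with overlapping groups and adjusted p = 0.772 with 8 lines.

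Factors of gut endoderm held both directions. Of 14 tested without T69a, Hnf4g and Cdx2 were called higher and none lower. Cdx2, an intestinal identity factor, was 31.6, 9.3, 62.2 and 31.9 CPM in T3, T34, T69a and T69b and 95.2, 74.8, 83.5 and 86.7 CPM in M1, M16, M28 and M30, so that every metastasis line exceeded every primary line. Its log2 fold change was 1.55 ± 0.42 with 8 lines (adjusted p = 0.334) and 1.92 ± 0.32 without T69a (adjusted p = 0.041). Isx, an intestinal homeobox factor, was 0.0197, 0.0671, 0.914 and 1.32 CPM in the primary lines and 18, 7.61, 6.35 and 7.37 CPM in the metastasis lines and passed in neither fit in edgeR, although the groups did not overlap. Gata6, an endoderm factor tied to the classical tumor subtype, was 38.7, 31.6, 25.6 and 28.8 CPM in the primary lines and 0.157, 17, 18.9 and 23.3 CPM in the metastasis lines. The liver line M1 was far below every other line, and the other 3 metastasis lines were below every primary line by less. Foxa1 was 0.0197, 0.157, 3.63 and 1.13 CPM and 8.17, 0.975, 2.1 and 4.83 CPM in the same order, and Gata5 0.553, 2.5, 44.5 and 18.7 CPM and 8.82, 13, 47.9 and 44.2 CPM. Neither passed in either fit.

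Duct products other than keratins shared the direction of Ambp in part. Of 12 duct markers, 4 were called lower without T69a (Car2, Bicc1, Spp1 and Ambp) and none higher, against 2.05% and 1.56% of all genes. Car2, a carbonic anhydrase of bicarbonate secretion, was 173, 177, 61.9 and 113 CPM in T3, T34, T69a and T69b and 68.8, 46.5, 36.2 and 60.8 CPM in M1, M16, M28 and M30. Within every mouse the metastasis lines were lower, although M1 exceeded T69a of another mouse. Spp1, the secreted matrix protein osteopontin, was 696, 1924, 93 and 482 CPM in the primary lines and 286, 268, 81 and 113 CPM in the metastasis lines, with T69a in the metastasis range. Bicc1, an RNA-binding protein of ducts and tubules, was 306, 462, 25.4 and 172 CPM in the primary lines and 27.2, 16.6, 32.8 and 30.3 CPM in the metastasis lines. Aqp5, a water channel, had values in the other direction, at 375, 125, 867 and 595 CPM in the primary lines and 760.4, 769, 1081 and 957 CPM in the metastasis lines. Its metastasis lines were above the primaries of their mouse in every mouse, but it passed in neither fit (adjusted p = 0.386 with 8 lines and 0.114 without T69a). Krt7 and Krt19 did not pass in either fit, and neither did Cftr, the chloride channel of ducts, which was 4.84, 4.05, 78.8 and 17.4 CPM in the primary lines and 83.5, 13.8, 52.5 and 84.3 CPM in the metastasis lines.

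Of 15 classical subtype genes tested, Lgals4, Cdh17 and Muc13 were called higher without T69a. The median log2 fold change of the 15 was 0.30 with 8 lines and 0.47 without T69a. By order with T69a included, Muc13 alone was higher in every mouse and Tff2 alone lower. Tff2 had a log2 fold change of -3.66 ± 1.13 with 8 lines (adjusted p = 0.368). Lgals4, a galectin of gut epithelium, was 129.6, 22.6, 1545 and 273 CPM in T3, T34, T69a and T69b and 391, 346, 1183 and 1293 CPM in M1, M16, M28 and M30, with T69a the highest line of all. Of 7 basal and squamous genes, Ly6d alone was called, and it was lower. The median log2 fold change of the list went the other way, at 1.12 with 8 lines and 1.23 without T69a. By order, 1 of the 7 was higher and 1 lower in every mouse with T69a. With T69a set aside these were 4 and 1, against 14.7% and 17.6% of all genes. Ly6d was 79.4, 114, 34.7 and 105 CPM in the primary lines and 2.24, 5.71, 6.92 and 4.41 CPM in the metastasis lines, and T69a was above every metastasis line (log2 fold change -4.17 ± 0.48, adjusted p = 0.124 with 8 lines and 0.00554 without T69a). None of 17 epithelial adhesion genes passed in either fit, and Cdh1, which encodes E-cadherin, was 348, 479, 360.1 and 441 CPM and 306, 305, 380 and 366 CPM. Of 5 mesenchymal genes tested, S100a4 and Foxf2 were called higher without T69a. S100a4, a calcium-binding protein, was 4.32, 3.53, 5.87 and 2.95 CPM in the primary lines and 34.9, 41.5, 10.4 and 16 CPM in the metastasis lines, with no overlap, and its adjusted p was 0.236 with 8 lines and 0.0253 without T69a. Vim, which encodes vimentin, was 0.217, 3.74, 0.389 and 0.325 CPM and 2.38, 17, 1.85 and 0.816 CPM and passed in neither fit. Fn1, which encodes fibronectin, went the other way and was lower in every mouse, T69a included. Its log2 fold change was -2.85 ± 0.91 with 8 lines (adjusted p = 0.372) and -3.07 ± 0.82 without T69a (adjusted p = 0.111).

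Of 15 matrix protease and inhibitor genes tested, Timp3 and Mmp7 were called lower without T69a. Timp3, an inhibitor of metalloproteinases held in the matrix, was 556, 686, 39.8 and 721 CPM in T3, T34, T69a and T69b and 33, 14.3, 16.6 and 19.7 CPM in M1, M16, M28 and M30. T3, T34 and T69b were far above all other lines, and T69a lay just above the highest metastasis line. The log2 fold change was -4.60 ± 0.88 with 8 lines (adjusted p = 0.236) and -5.03 ± 0.32 without T69a (adjusted p = 0.00607). Both the protease and the inhibitor were thus lower. Of 18 integrin and basement membrane genes, Lamc1, a laminin chain, was called lower. It was 239, 234, 172 and 237 CPM in the primary lines and 125, 132, 160.5 and 166 CPM in the metastasis lines.

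Chemokines had the lowest median of any list of 4 or more tested genes, -2.24 with 8 lines and -2.62 without T69a. Of 11 tested without T69a, Cxcl1, Cxcl15 and Ccl2 were called lower and none higher. Cxcl15 passed the filter on low counts only in that fit. Ccl2, which draws monocytes, was 6.67, 41, 0.503 and 5.77 CPM in T3, T34, T69a and T69b and 0.0589, 0.122, 0 and 0.0302 CPM in M1, M16, M28 and M30. T69a was below the other primaries and above every metastasis line. Cxcl1, which draws neutrophils, was 19.6, 77.1, 1.65 and 9.04 CPM in the primary lines and 11.8, 16.5, 1.7 and 2.12 CPM in the metastasis lines, with T69a the lowest of all 8. Cxcl5, a related neutrophil chemokine, was 229, 1552, 25.2 and 97.8 CPM and 331, 68.7, 5.17 and 17.8 CPM in the same order. M1 exceeded its primary T3, so the direction was not shared by all mice, and it passed in neither fit. Cd14, a receptor for bacterial lipopolysaccharide, was 70.3, 181, 10.5 and 40.5 CPM in the primary lines and 10.7, 9.58, 7.25 and 9.85 CPM in the metastasis lines and was called lower without T69a (adjusted p = 0.028).

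Receptors and ligands of growth factors were called lower at 4 of 19 without T69a, against 2.05% of all genes. Fgfr2, a receptor for the FGF-10 in the medium, was 149, 213, 6.51 and 52.3 CPM in T3, T34, T69a and T69b and 6.58, 0.683, 0.859 and 3.47 CPM in M1, M16, M28 and M30. M1 was as high as T69a, but within every mouse the metastasis lines were lower. Nrg1, a ligand of ERBB3 and ERBB4, was 5.59, 8.99, 0.251 and 7.07 CPM in the primary lines and 0.216, 0.414, 0.0678 and 0.0906 CPM in the metastasis lines. Grb10, an adaptor that damps insulin receptor signals, was 16.8, 21.4, 1.76 and 16.1 CPM in the primary lines and 0, 0.0488, 0.158 and 0.211 CPM in the metastasis lines. Fgfr4 was the other member called. The EGFR ligand Areg was 51, 24.2, 60.8 and 56.1 CPM and 30.2, 65.6, 60.6 and 39.4 CPM in the same order, with overlapping groups and no call.

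Among 10 Wnt targets, Lgr5 was called higher without T69a. Lgr5, the R-spondin receptor of intestinal stem cells, was 6.95, 7.0, 12.8 and 7.39 CPM in T3, T34, T69a and T69b and 15.4, 18.1, 15.6 and 18 CPM in M1, M16, M28 and M30. All metastasis lines were above all primary lines (log2 fold change 0.99 ± 0.24, adjusted p = 0.323 with 8 lines and 0.0325 without T69a). Axin2, a feedback inhibitor of the pathway, was 10.8, 7.14, 33.5 and 20.5 CPM and 37, 40.4, 33.9 and 50.7 CPM and passed in neither fit. Of 12 TGF-beta and BMP response genes, measured here under a TGF-beta receptor inhibitor, Inhbb, an activin and inhibin subunit, was called lower without T69a (adjusted p = 0.00727) and not with 8 lines (adjusted p = 0.124). It was 0.513, 14.1, 2.74 and 0.477 CPM in the primary lines and 0, 0.0731, 0 and 0 CPM in the metastasis lines. T34 held 630 of its 798 counts in the primary lines, and the metastasis lines held 3 counts, all in M16.

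Among 14 genes of sterol uptake, storage and efflux, Soat1 was called higher and Abca1 lower without T69a. Soat1, which esterifies cholesterol for storage, was 47.3, 51.6, 217 and 79.1 CPM in T3, T34, T69a and T69b and 159, 195, 239 and 220.3 CPM in M1, M16, M28 and M30. T69a was above M1 and M16 and below M28 and M30, so within mouse 6 the metastasis lines exceeded T69a by little. The log2 fold change was 1.23 ± 0.39 with 8 lines (adjusted p = 0.368) and 1.71 ± 0.13 without T69a (adjusted p = 0.00894). Abca1, the cholesterol exporter, was 0.237, 0.604, 0.0914 and 0.238 CPM in the primary lines and 0.0393, 0.122, 0.0452 and 0.0302 CPM in the metastasis lines, a low level in every line. Only the fit without T69a tested Abca1. None of 19 cholesterol synthesis genes passed in either fit, and their median log2 fold change was 0.05 with 8 lines.

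Of 15 Nrf2 targets, Gclm and Osgin1 were called lower without T69a and none higher, and 9 of 15 were lower in every mouse with T69a included, against 7.93% of all genes. The median log2 fold change was -0.71 with 8 lines. Gclm, a subunit of the enzyme that starts glutathione synthesis, was 144, 123, 82.6 and 111 CPM in T3, T34, T69a and T69b and 80.8, 51.6, 56 and 61.4 CPM in M1, M16, M28 and M30. DESeq2 called Gclc, Gclm, Gsta3, Gstm1, Tkt and Osgin1 lower in 8 lines, against 3.05% of all genes. Gsta3, a glutathione transferase, was 368, 429.6, 118 and 197 CPM in the primary lines and 16.8, 13.3, 12 and 57.9 CPM in the metastasis lines. The glutathione transferases have close relatives among which reads may be shared. Car9, a hypoxia-induced carbonic anhydrase, was 82.4, 172, 45.5 and 76.2 CPM in the primary lines and 16.7, 12.9, 4.84 and 15.5 CPM in the metastasis lines and was the 1 member called of 16 hypoxia and glycolysis genes.

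The remaining lists held few calls. None of 20 cell cycle genes, 11 immediate early genes, 11 antigen presentation genes, 6 genes of the Ink4 and Arf locus and cell cycle inhibitors or 7 iron genes passed in either fit in edgeR. In the same fit without T69a, Ifit2 was called lower among 12 interferon genes, Sesn2 lower among 14 unfolded protein and Atf4 genes and Rdh10, a retinol dehydrogenase, higher among 13 retinoid genes. Cdkn2a was 50.1, 56.7, 91 and 50.6 CPM in T3, T34, T69a and T69b and 102, 69.3, 65.8 and 70.7 CPM in M1, M16, M28 and M30. Its count joins the transcripts of the p16 and Arf proteins. Smad4 was 80.1, 76.5, 62.6 and 67.8 CPM in the primary lines and 68.5, 71.8, 64.9 and 56.4 CPM in the metastasis lines, and Myc 57, 55.7, 66 and 77.1 and 45.5, 73.3, 79.4 and 62 CPM. The groups overlapped at all 3 of these genes, and none passed in either fit. T69a was below T69b at all 20 cell cycle genes, against 7807 of all 15718 genes.

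**Figure D5:**
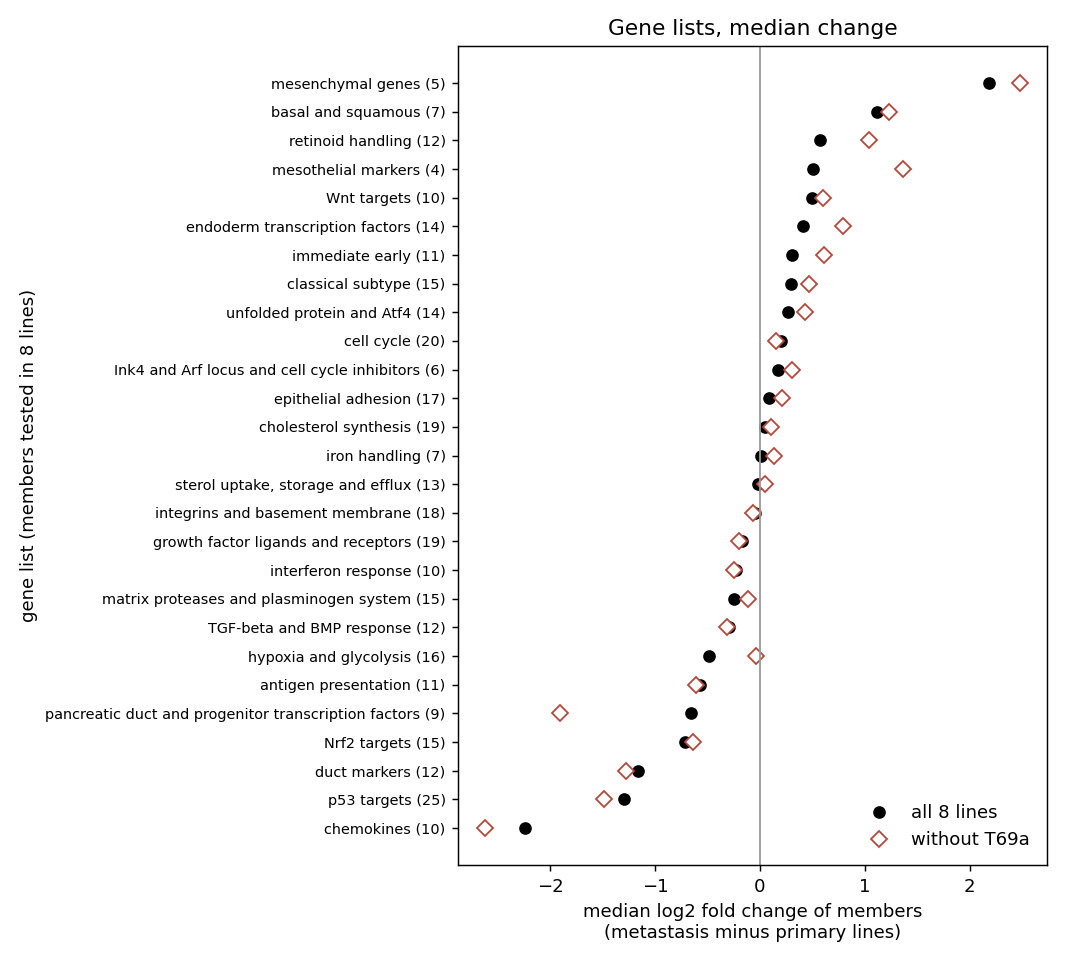
Median log2 fold change of each gene list with at least 4 members tested (metastasis minus primary lines), with the number of members tested in 8 lines in brackets; filled circles are all 8 lines and open diamonds the 7 lines without T69a. Chemokines, p53 targets and duct markers have medians below -1 in both fits, and the duct and progenitor factors go from -0.66 over 9 members to -1.90 over 10 without T69a.

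Markers of the host organs were looked at in each metastasis line. Albumin (Alb), the defining hepatocyte product, had 0 counts in both liver lines M1 and M28 and in M30. The summed hepatocyte markers were 22.8 CPM in M1 and 300.8 CPM in M28 but also 396.7 CPM in the ovary line M30 and 335.5 CPM in the primary T69a. That sum was led by Apob, a lipoprotein also made by intestine, at 6.3, 4.74, 327 and 36.5 CPM in T3, T34, T69a and T69b and 22.3, 3.73, 300.1 and 394 CPM in M1, M16, M28 and M30. High Apob was thus seen in M28, M30 and T69a of mouse 6 and not in the liver line M1. Ttr, which carries thyroid hormone and is made by liver and islets, was higher in the primary lines, at 98.4, 82.8, 7.2 and 51.3 CPM against 0.196, 0.463, 0.0904 and 1.54 CPM.

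The lung line M16 had 0 counts of the alveolar and airway markers Sftpc, Nkx2-1, Scgb1a1 and Sftpa1. Sftpd, a surfactant protein, was 57.4, 249.9, 11.5 and 36 CPM in the primary lines and 0.216, 0.0731, 0.52 and 2.3 CPM in the metastasis lines, the lowest of them in M16. Hopx, a homeodomain protein of alveolar cells that other epithelia also make, was 1.17, 0.403, 7.22 and 3.51 CPM in T3, T34, T69a and T69b and 6.24, 6.66, 8.61 and 15.3 CPM in M1, M16, M28 and M30. Every metastasis line, not M16 alone, lay above the primary lines of its mouse, and Hopx passed in neither fit (adjusted p = 0.34 with 8 lines and 0.0632 without T69a). The ovary line M30 had 0 counts of Foxl2 and Fshr, and its summed ovary and oviduct markers of 7.86 CPM compare with 5.12 to 7.37 CPM in the other lines.

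The liver, lung and ovary terms were compared in 1 fit with a term for each mouse. No gene passed an adjusted p of 0.05 in edgeR (0% of 15718), and 321 had an unadjusted p under 0.05. The fit has 2 residual degrees of freedom, and lung and ovary cannot be told apart from the single lines that stand for them. The gene with the lowest p among those at 5 CPM or more in 1 line was Muc1, a membrane mucin of duct epithelium. It was 174, 247, 108 and 113 CPM in T3, T34, T69a and T69b and 143, 20.7, 109.6 and 125 CPM in M1, M16, M28 and M30, so that M16 alone was low (unadjusted p = 0.000482, adjusted p = 1 in edgeR). Itga1, a collagen-binding integrin, was 9.35, 1.1, 12.4 and 31.6 CPM in M1, M16, M28 and M30 and again lowest in M16. Ildr2, a membrane protein of the immunoglobulin family, was 0, 8.83, 0.0226 and 5.77 CPM in these lines. It was absent or nearly so in both liver lines, from different mice, and present in the lung and ovary lines and in all 4 primaries, which ran from 2.35 to 3.62 CPM.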

How the data were processed

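RNA was measured in 8 organoid lines by total RNA sequencing after ribosomal RNA depletion. The tools named in the submitters' processing notes are FastQC 0.11.8, STAR 2.6.0c, an aligner, and RSEM 1.3.1, a quantifier, with the genome build GRCm38.p6. The annotation release and the strand setting of the counting are not given in the sources used here, so reads of overlapping antisense genes may not be separated. Per the file headers, the authors deposited expected counts, which are RSEM's estimates and not always whole, beside TPM, an abundance scaled within each library. Near-identical genes share reads by estimate.

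Expected counts were rounded. The tables list 55487 genes, and 55394 identifiers were matched to GENCODE M21 for symbols and positions; the 93 others held at most 0.0034% of counts. Groups, mice and sites came from the labels. Stages were compared by the quasi-likelihood test of edgeR 4.0.16 in R 4.3.3, with TMM, filterByExpr by stage, mouse and stage terms and Benjamini-Hochberg adjustment over all genes tested, at a threshold of 0.05. The 8-line fit has 4 residual degrees of freedom, the 7-line fit 3 and the site fit 2. All adjusted p values are edgeR's unless another tool is named. Log2 CPM used a prior count of 2. Pairing rests on the mouse label, since lines of a mouse come from the same animal. As a check, deviations from the stage means correlated at 0.151 on average over 6 primary and metastasis pairs of the same mouse (from -0.198 to 0.464) and at -0.0955 over 10 pairs of different mice (from -0.39 to 0.319). Over the 4 same-mouse pairs without T69a the mean was 0.0447.

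Alternatives were RLE size factors, other count filters, no mouse block, DESeq2 1.42.0, limma 3.58.1 (voom) with a random mouse effect, limma for log2(TPM + 1) values, counts summed per mouse and stage, edgeR's robust option, ribosomal RNA genes left out, liver lines only and each line left out. Those of the fit without T69a were added after seeing the data. The lines compared and the gene lists were chosen with earlier results of these data known. Genes were named by rule: those past the threshold with 8 lines, 10 genes of the model, up to 3 members with the lowest p per list, the 5 lowest p of the site test and host organ markers. Other genes, including list members called without T69a and the extremes of that fit, were named after their values were seen. Some genes named by these rules are not reported here. Promoters are RefSeq's, on GRCm38.p6.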

Additional observations from a re-analysis of the deposited data

Results flagged for a closer look

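Across the genes named and the lists, each group of 4 lines was checked for 1 line far from the rest on log2 CPM, as the gap from that line to its nearest neighbour over the range of the group, against Dixon's 95% critical value for 4 values. 24 of 238 groups passed it. Chance passes about 1 in 20 groups, but many of these genes were named because they were called only without T69a, which selects genes where T69a stands apart from the other primaries. The number of groups is therefore not read against that share, and neither is T69a's part in it.

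T69a was the line apart in 16 of these, all among the primary lines. It was the low one at Trp53 (0.922), at the p53 targets Dglucy (0.932), Mdm2 (0.893), Eda2r (0.875), Zmat3 (0.858), Sesn2 (0.854) and at the mean of the p53 target list (0.853). It was also the low one at Lamc1 (0.937), Sall1 (0.928), Timp3 (0.91), Grb10 (0.885), Osgin1 (0.864), Nrg1 (0.862) and Hhex (0.844). It was the high one at Lgr5 (0.899) and at the mean of the list of the Ink4 and Arf locus and cell cycle inhibitors (0.832).

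Among the metastasis lines, the liver line M1 stood low at Gata6 (0.934) and Hhex (0.895) and high at Cdkn2a (0.836). The lung line M16 stood low at Muc1 (0.863). The gap was the whole range (1) at Adh1 and Inhbb for M16 and at Sall1 and Xlr3a for M28, where the other 3 lines had 0 counts.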

How the results depend on the processing

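With 8 lines, edgeR called 2 genes with TMM, and also with RLE size factors, with the robust option and with ribosomal RNA genes left out. The count was 102 with no filter, 1 with at least 1 CPM in 4 lines, 732 with DESeq2, 20 with counts summed per mouse and stage and 0 to 579 with a line left out. It was 0 with no replicate block (1743 genes at an unadjusted p under 0.05), 0 with limma voom and a random effect of mouse (2073), 0 with limma on log2(TPM + 1) (1331) and 0 with liver lines only (863). Of list members, 1 was called, Ambp; the number was 19 with no filter, 74 with DESeq2, 6 with summed counts, 0 with no replicate block, either limma fit or liver lines only, and 0 to 54 with a line left out. Without T69a the count was 579, and 1277 with no filter, 2142 with DESeq2, 610 with no replicate block and 17 to 563 with a further line left out. The cause of these differences was not tested, except that with the mouse block a mouse left with 1 stage adds nothing to the contrast. The site test called 0 genes in edgeR with TMM, with RLE (322 at an unadjusted p under 0.05), with no filter (461) and without T69a (986).

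Adh1 passed in 9 of the 19 fits that tested it, with adjusted p between 9.04e-17 and 0.686, and Ambp in 9 of 20, between 2.81e-40 and 0.612. Both were lower in every one. No named gene that was called changed direction under any alternative. With 8 lines, comparisons of a named gene with an alternative kept their side of the threshold in 2679 cases, gained a call in 167 and lost one in 21; without T69a 114 lost it and 192 did not. With 4 residual degrees of freedom, a missed threshold does not show that levels were alike. Depth limits the genes at 0 counts to the lower bounds given.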

Other observations

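Genes of retinoid handling differed in direction. Aldh1a1, which makes retinoic acid, was 23.4, 49.8, 13.9 and 31.2 CPM in T3, T34, T69a and T69b and 1.85, 1.36, 7.75 and 12.3 CPM in M1, M16, M28 and M30. Every metastasis line lay below every primary line, and the adjusted p was 0.356 with 8 lines and 0.0701 without T69a. The related Aldh1a2 and Aldh1a3 had fold changes in the other direction, and neither passed in either fit in edgeR. Aldh1a2 was 0.118, 0.403, 0.0686 and 0.195 CPM in the primary lines and 23.7, 18.6, 0.0904 and 0.967 CPM in the metastasis lines. Aldh1a3 was 2.25, 0.895, 10.4 and 2.52 CPM and 3.48, 5.39, 6.33 and 7.88 CPM in the same order. Rdh10, which makes retinal from retinol, was 18.3, 22.2, 110.1 and 54.5 CPM in the primary lines and 101, 107, 156 and 91.1 CPM in the metastasis lines, and T69a was inside the metastasis range. Adh1, which also acts on retinol, was the gene named above with 0 counts in 3 metastasis lines.

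None of 11 antigen presentation genes passed in either fit, and their values differed in direction. Tap1, a peptide transporter, was 6.59, 7.76, 1.51 and 6.72 CPM in T3, T34, T69a and T69b and 0.51, 3.02, 1.83 and 2.08 CPM in M1, M16, M28 and M30, with T69a inside the metastasis range and adjusted p = 0.413 with 8 lines. B2m, the light chain of class I molecules, was 84.6, 122, 74.2 and 61.1 CPM and 59.7, 52.5, 43.5 and 62.5 CPM, with overlapping groups. The class I heavy chain H2-K1 was 160.5, 233, 368 and 239 CPM and 276, 339.7, 308 and 344 CPM, and H2-D1 was 180.1, 203, 315 and 224 CPM and 213, 225, 301 and 302 CPM, and at both every metastasis line was above the primary lines of its mouse with T69a set aside. Ptpn22, a phosphatase best known from lymphocytes, was 0, 0.291, 0.731 and 0.303 CPM in the primary lines and 43.1, 18, 3.23 and 2.33 CPM in the metastasis lines and was highest in M1. The leukocyte marker Ptprc was between 0 and 0.366 CPM in the 8 lines, and Cd3e of T cells had 0 counts in all of them. Slc40a1, the iron exporter ferroportin, was 14.7, 30.2, 143 and 39.96 CPM and 116, 58.9, 124 and 136 CPM, with T69a the highest line (adjusted p = 0.0593 without T69a).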
